A study of Mus musculus and Mus musculus
Rattus norvegicus with 30 samples.

Results

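The genes described here are 10 genes of the primitive streak and the posterior mesoderm: the Wnt ligands Wnt3, Wnt3a and Wnt8a, the T-box factors T (brachyury) and Tbx6, the bHLH factors Msgn1 and Mesp1, and the homeobox factors Mixl1, Evx1 and Nkx1-2. They were chosen by name, as genes known to mark the streak and the mesoderm that leaves it, among 44234 gene symbols in the mouse and rat count tables. All 10 were found in both tables of RMES cells, where rat T carries the symbol Tbxt, and 9 in the genes shared by both mESC tables. Msgn1 was in the table of replicate 2 alone.

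mESCs are mouse embryonic stem cells, and RMES cells are allodiploid stem cells made by fusing mouse and rat haploid stem cells, so that each nucleus holds 1 mouse and 1 rat genome. Cells labelled WT were compared with cells overexpressing FLAG-tagged Cdx2 from a doxycycline-inducible lentiviral vector: mouse Cdx2 (mCdx2-OE), rat Cdx2 (rCdx2-OE), or rat Cdx2 carrying 1, 2 or all 3 of the amino acid changes that are particular to the mouse DNA binding domain (R1, R2, R3, R12, R13, R23 and R123). RNA-seq covered 20 mESC libraries (2 per condition) and 4 RMES libraries (2 WT, 1 mCdx2-OE and 1 rCdx2-OE), ATAC-seq covered WT and mCdx2-OE mESCs with 1 library each, and Cdx2 ChIP-seq covered mCdx2-OE and rCdx2-OE with 1 library each in both cell types. Neither the state of WT cells (parental, or carrying an uninduced vector) nor whether replicates were separate cultures is given in the labels, and p-values measure only the spread between these libraries, which may be technical. All cells were kept in a medium with LIF, a MEK inhibitor and the GSK3 inhibitor Chir99021, which activates Wnt signalling.

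In the gastrulating embryo, Wnt3 from the posterior epiblast starts the primitive streak, and T and Mixl1 are among the first genes switched on there. Wnt3a and Wnt8a act later, in the streak and the tail bud, where T and Wnt3a maintain each other's expression and Tbx6 and Msgn1 direct cells towards presomitic mesoderm. Mesp1 marks early cardiac and cranial mesoderm, Evx1 marks the posterior streak, and Nkx1-2 marks the progenitors of spinal cord and paraxial mesoderm beside it. Cdx2 itself acts in the trophoblast and, together with its paralogues, in the posterior body axis, where Wnt3a, T and the Cdx genes are linked.

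Libraries of WT mESCs held 74960057 and 94686029 counts and those of induced mESCs 12698443 to 24315929 counts, so that a gene near 0 is measured less well after induction. RMES libraries held 36166038 to 41418817 counts on the mouse and 29453412 to 35249756 counts on the rat genome. Cdx2 was at 1.36 and 1.21 CPM (counts relative to the library total) in WT mESCs and at 37.2 to 147 CPM in the induced libraries. In WT RMES cells it was already high, at 129 and 127 CPM on the mouse and 453 and 440 CPM on the rat allele. The induced transgene was read on the allele of its own species, at 968 CPM on the mouse allele with mCdx2-OE and 880 CPM on the rat allele with rCdx2-OE, and the other allele was then at 47.2 CPM (rat, mCdx2-OE) and 4.45 CPM (mouse, rCdx2-OE). In all 7 mutants Cdx2 was higher in replicate 1 (61.9 to 147 CPM) than in replicate 2 (37.2 to 68.8 CPM). The 8 pluripotency markers summed to 4030 to 4058 CPM in WT and 2826 to 4494 CPM in induced mESCs, which overlap, and in RMES cells they went from 6132 to 6137 CPM to 2353 to 2359 CPM on the mouse allele and from 4464 to 4505 CPM to 1502 to 1573 CPM on the rat allele (7 of 8 found). The 6 fibroblast markers went from 33.4 to 33.8 CPM to 1.28 to 4.42 CPM in mESCs and from 22.4 to 27.2 CPM to 7.87 to 10.8 CPM on the mouse allele, but had 20.6 to 26.7 CPM in WT and 23.6 to 29.9 CPM after induction on the rat allele. The endoderm markers had 11.5 to 11.6 and 10.4 to 16 CPM in mESCs (5 of 6 found), went from 5.77 to 6.32 CPM to 7.99 to 8.44 CPM on the mouse allele, where Cer1 was at 0, and went from 69.9 to 70.4 CPM to 25.2 to 27.9 CPM on the rat allele. The 8 trophoblast markers, Cdx2 among them, were higher after induction in all 3 tables, going from 157 to 158 CPM to 202 to 883 CPM in mESCs. This sum holds the overexpressed Cdx2 itself, at 37.2 to 147 CPM in induced mESCs, and a sum without Cdx2 was not taken. These sums were not tested, and their part in the results below was not tested. In bulk RNA, fewer cells of a type and less RNA per cell cannot be told apart.

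In mESCs, 5 of the 7 genes that passed the filter on low counts were lower in the mean of the 9 constructs than in WT: T, Wnt3a, Wnt8a, Evx1 and Nkx1-2. Not all constructs shared this: Wnt8a was not called with mCdx2-OE or rCdx2-OE, and Evx1 and Nkx1-2 were not called with R1, R2 and R12. None of the 7 rose in the mean of the 9 constructs. Tbx6 and Mixl1 did not pass the test, and Wnt3 and Mesp1 were too low to be tested. With replicate 1 or replicate 2 left out, in a fit of 1 WT library against the 9 constructs as replicates, T and Wnt3a were called and Wnt8a, Evx1 and Nkx1-2 were not. These calls are from edgeR's quasi-likelihood test of the mean of the 9 constructs against WT, with a Benjamini-Hochberg adjusted p under 0.05 and a fold over 2, and 13.5% of the 16000 genes tested were called lower by the same rule. The median log2 fold change was -1.47 over the 7 genes and -0.02 over all genes tested. The tables of replicates 1 and 2 were counted separately. Within each table T, Wnt3, Wnt3a, Wnt8a and Nkx1-2 were below WT with 9 of 9 constructs. Evx1 was below WT with 8 and 7, Tbx6 with 0 and 9, Mesp1 with 6 and 9, and Mixl1 with 3 and 4. The 9 constructs share the 1 WT library of their table, and the share of all genes below WT in this way was not computed.

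Levels compared per kilobase of transcript place the genes in WT mESCs. Wnt8a was highest, at 4.92 ± 0.07 CPM per kb (SD, n = 2), followed by Nkx1-2 at 2.62 ± 0.13. T (0.918 ± 0.069) and Wnt3a (0.528 ± 0.016) came next and were separated by more than their spread. Evx1 (0.354 ± 0.057), Tbx6 (0.283 ± 0.155), Mixl1 (0.166 ± 0.061) and Wnt3 (0.157 ± 0.012) overlapped within their spread in part, and Mesp1 was last at 0.053 ± 0.027. Msgn1 had 3 counts in the WT library of replicate 2, 2 in mCdx2-OE and R23, and 0 in the other 7 conditions.

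**Figure D1:**
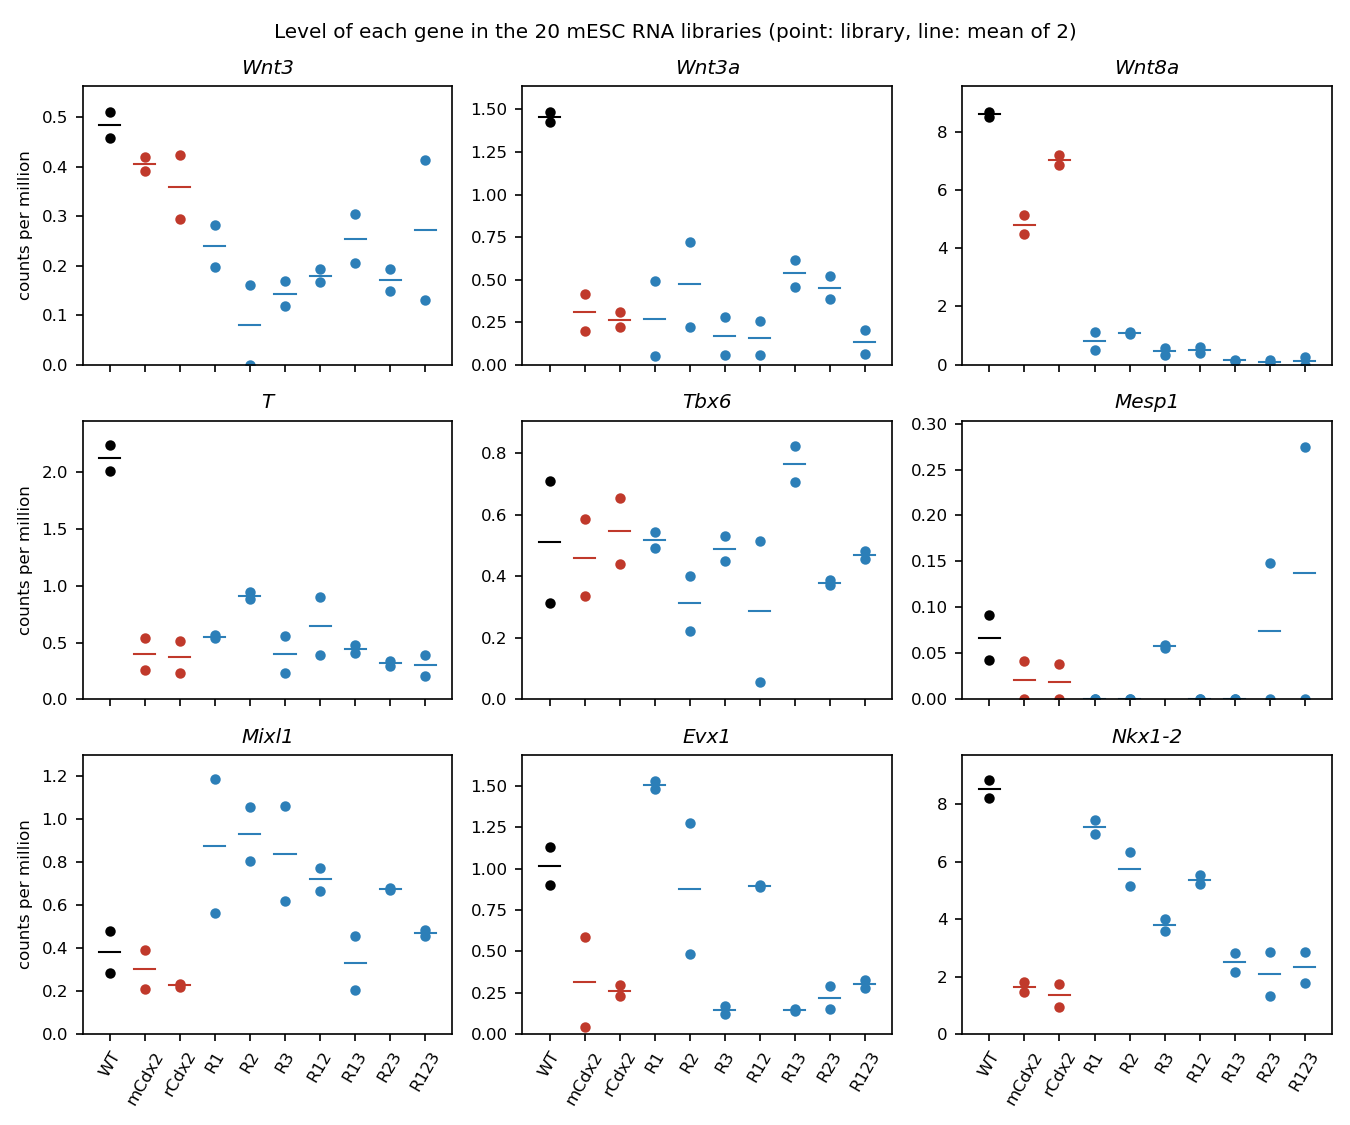
Level of 9 of the 10 genes in CPM (vertical axes, each starting at 0) in the 20 mESC libraries. Points are libraries and lines are the means of 2, in black for WT, in red for mCdx2-OE and rCdx2-OE and in blue for the 7 mutants. T and Wnt3a lie below both WT libraries in all 18 induced libraries, while Wnt8a stays at 4.47 to 7.18 CPM with the intact proteins and is at most 1.14 CPM with the mutants.

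Among the ligands, Wnt3a was at 1.49 and 1.43 CPM in WT, and in the 18 induced libraries it had a lowest value of 0.049, a median of 0.269 and a highest value of 0.722 CPM. Every induced library was below both WT libraries, at 1 to 10 counts beside 105 and 125 in WT. Its log2 fold change in the mean of the constructs was -2.41 ± 0.32 (SE; edgeR adjusted p = 3.65e-06). Wnt3, the ligand that starts the streak, was at 0.510 and 0.457 CPM in WT and at 0 to 0.423 CPM after induction, again below WT in all 18 libraries, but with at most 11 counts in any of them. It was left out by the filter, and without the filter its log2 fold change was -1.20 ± 0.34 (edgeR adjusted p = 0.00412).

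Wnt8a stood at 8.67 and 8.51 CPM in WT. mCdx2-OE libraries had 4.47 and 5.14 CPM and rCdx2-OE libraries 6.84 and 7.18 CPM, whereas the 14 mutant libraries had a lowest value of 0, a median of 0.362 and a highest value of 1.14 CPM. The intact proteins and the mutants thus did not overlap. Against WT, the log2 fold change was -0.85 ± 0.23 with mCdx2-OE (edgeR adjusted p = 0.00404), which is under 2-fold, and -0.30 ± 0.22 with rCdx2-OE (edgeR adjusted p = 0.25). The mean of the 9 constructs, -3.78 ± 0.17 (edgeR adjusted p = 1.19e-11), was carried by the mutants.

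Among the T-box factors, T was at 2.01 and 2.24 CPM in WT, and the induced libraries had a lowest value of 0.206, a median of 0.443 and a highest value of 0.943 CPM. No induced library reached WT. The log2 fold change was -2.22 ± 0.21 (edgeR adjusted p = 9.4e-08), a 4.67-fold fall. Tbx6, which turns streak cells to presomitic fate, was at 0.312 and 0.708 CPM in WT and at 0.055 to 0.824 CPM after induction, and the groups overlapped. Its log2 fold change was -0.21 ± 0.33 (edgeR adjusted p = 0.567).

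Of the homeobox factors, Nkx1-2 had 8.23 and 8.85 CPM in WT, and in the induced libraries a lowest value of 0.953, a median of 2.86 and a highest value of 7.46 CPM. All 18 were below WT, with a log2 fold change of -1.47 ± 0.14 (edgeR adjusted p = 1.03e-07). With R1, R2 and R12 the fall was under 2-fold and not called, at -0.24, -0.58 and -0.67. Evx1 had 1.13 and 0.902 CPM in WT, and in the induced libraries a lowest value of 0.042, a median of 0.292 and a highest value of 1.53 CPM. 14 of the 18 were below both WT libraries, and the log2 fold change was -1.45 ± 0.31 (edgeR adjusted p = 0.000478), or -0.56 without replicate 1 and -1.43 without replicate 2 (edgeR adjusted p = 0.676 and 0.312). Evx1 was not called lower with R1, R2 and R12. Mixl1, an early streak and endoderm factor, had 0.283 and 0.480 CPM in WT and 0.206 to 1.19 CPM after induction, with a log2 fold change of 0.47 ± 0.29 (edgeR adjusted p = 0.157). Mesp1 had 3 and 8 counts in WT and 0 to 4 in the induced libraries.

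Each construct was also compared with WT on its own. 4 of the 7 genes tested were lower with mCdx2-OE (T, Wnt3a, Evx1 and Nkx1-2) against 15.0% of all genes, and the same 4 were lower with rCdx2-OE against 15.4%. None of the 7 was higher with either, where 18.4% and 19.0% of all genes were. With mCdx2-OE the log2 fold changes were -2.31 ± 0.39 for T and -2.40 ± 0.26 for Nkx1-2, and with rCdx2-OE they were -2.65 ± 0.42 and -2.58 ± 0.27. T and Wnt3a were lower with every one of the 9 constructs, as were 7.52% of all genes. In DESeq2 this held for T alone, and in edgeR it held for 0 of the 7 genes with replicate 1 or replicate 2 left out. Evx1 lost its call with mCdx2-OE without replicate 1, at -0.61 (edgeR adjusted p = 0.377), and with rCdx2-OE at -1.60 (edgeR adjusted p = 0.15). Wnt3a lost its call with mCdx2-OE without replicate 2, at -1.81 (edgeR adjusted p = 0.0597). Mixl1 was higher than WT with R1, R2 and R3, at log2 fold changes of 1.22, 1.28 and 1.10.

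No gene of the 7 passed the edgeR test between mCdx2-OE and rCdx2-OE, where 0.0188% of all genes did. 1 of the 7, Wnt8a, had an unadjusted p under 0.05, at a log2 difference of -0.55 ± 0.25 (mCdx2-OE against rCdx2-OE), and DESeq2 called 0. The differences of T, 0.34 ± 0.56, and Evx1, 0.06 ± 0.80, had standard errors wide enough to hide a change of 2-fold.

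Across all 9 constructs, 4 of the 7 genes differed (Mixl1, Evx1, Wnt8a and Nkx1-2), where 56.9% of all genes tested did, so that the share is near the background. T, Tbx6 and Wnt3a did not pass this test. The split seen for Wnt8a was examined by comparing the mean of the 2 intact proteins with the mean of the 7 mutants, a comparison chosen after the values were seen. 3 of the 7 genes passed, where 64.0% of all genes did: Wnt8a was higher with the intact proteins, by 4.13 ± 0.19 on the log2 scale, and Nkx1-2 and Mixl1 were lower, at -1.31 ± 0.18 and -1.37 ± 0.33. Mixl1 lost its call without either replicate (edgeR adjusted p = 0.0531 and 0.0502). R123, which carries all 3 mouse changes, had 0.275 and 0 CPM of Wnt8a beside 4.47 and 5.14 CPM with mCdx2-OE. Wnt8a was the only 1 of the 7 genes that passed in that comparison, where 42.4% of all genes did. The labels give no batch for the lines, and a difference between sets of lines and a difference between intact and mutant proteins cannot be told apart.

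For the third change of the DNA binding domain, 2 of the 7 genes passed, Evx1 and Wnt8a, both lower. In the additive model of the 16 libraries of rCdx2-OE and the mutants, the log2 effect of change 3 was -2.05 ± 0.38 for Evx1 and -3.26 ± 0.42 for Wnt8a (edgeR adjusted p = 0.000511 and 2.36e-05), and 36.6% of all genes passed for the same change. Without replicate 1 and 2, Evx1 was at -2.18 and -1.88 and lost its call (edgeR adjusted p = 0.0524 and 0.0748). Wnt8a kept its call without replicate 1, at -3.65, and lost it without replicate 2, at -2.81 (edgeR adjusted p = 0.0583). Evx1 had 0.481 to 1.53 CPM in the 6 mutant libraries without change 3 and 0.118 to 0.326 CPM in the 8 with it, but the 2 rCdx2-OE libraries, which also lack the change, had 0.231 and 0.293 CPM, inside the latter range. Nkx1-2 had 5.16 to 7.46 CPM in mutants without and 1.34 to 4.0 CPM in those with the change, while rCdx2-OE had 1.73 and 0.953 CPM. Wnt8a had 0.387 to 1.14 CPM in mutants without and 0 to 0.588 CPM in those with the change. With rCdx2-OE it had 6.84 and 7.18 CPM. In the same model Wnt8a was at -1.96 for change 1 and -1.84 for change 2, neither of which passed. Over all libraries of the model, those with and without change 3 thus overlapped for Evx1, Nkx1-2 and Wnt8a. Among the 7 mutants alone, a comparison chosen after the values were seen, 5 of the 7 genes passed for change 3, all lower, where 51.8% of all genes did. The transgene moved too: Cdx2 was lower with change 3, at -0.94 ± 0.26 on the log2 scale, among the mutants (edgeR adjusted p = 0.00473), and its part in the result was not tested. For changes 1 and 2, edgeR called 0 of all genes (1995 and 1569 had an unadjusted p under 0.05, and DESeq2 called 24 and 2), 2 of the 7 genes had an unadjusted p under 0.05 for each of them, and DESeq2 called 1 and 0 of the 7.

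In RMES cells, T and Nkx1-2 fell on both genomes of 1 nucleus and Evx1 on the mouse allele, with log2 fold changes beyond those in mESCs, a difference between cell types that was not tested. On the mouse allele 3 of the 7 genes tested were lower and 2 higher, where 16.1% and 28.3% of all genes were. On the rat allele 4 of the 6 genes tested were lower and 1 higher, where 14.2% and 28.3% of all genes were. T and Evx1 on the mouse allele passed the filter on low counts through their WT libraries alone. Tbx6 on both alleles and Mixl1 on the mouse allele passed it through their induced libraries alone. On the mouse allele, Nkx1-2 passed it only in the WT and mCdx2-OE libraries, and Wnt8a only in WT replicate 2 and the induced libraries. The calls and p-values of these genes there are a description. mCdx2-OE and rCdx2-OE, with 1 library each, served as the 2 induced replicates. Per kilobase, Nkx1-2 was highest in WT on both alleles, at 23.1 ± 0.20 CPM per kb on the mouse and 65.7 ± 2.24 on the rat allele (SD, n = 2). T followed at 6.04 ± 0.25 and 41.6 ± 2.51. Evx1 was next on the mouse allele (3.39 ± 0.025) and Wnt3a on the rat allele (9.60 ± 0.70), and each of these steps exceeded the spread between libraries. Nkx1-2 is 918 bases long in the rat and 3264 in the mouse annotation, so its levels per kilobase cannot be compared between the alleles. In CPM, T was highest on the rat allele, at 82.1 ± 4.95 beside 60.3 ± 2.06 for Nkx1-2.

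**Figure D2:**
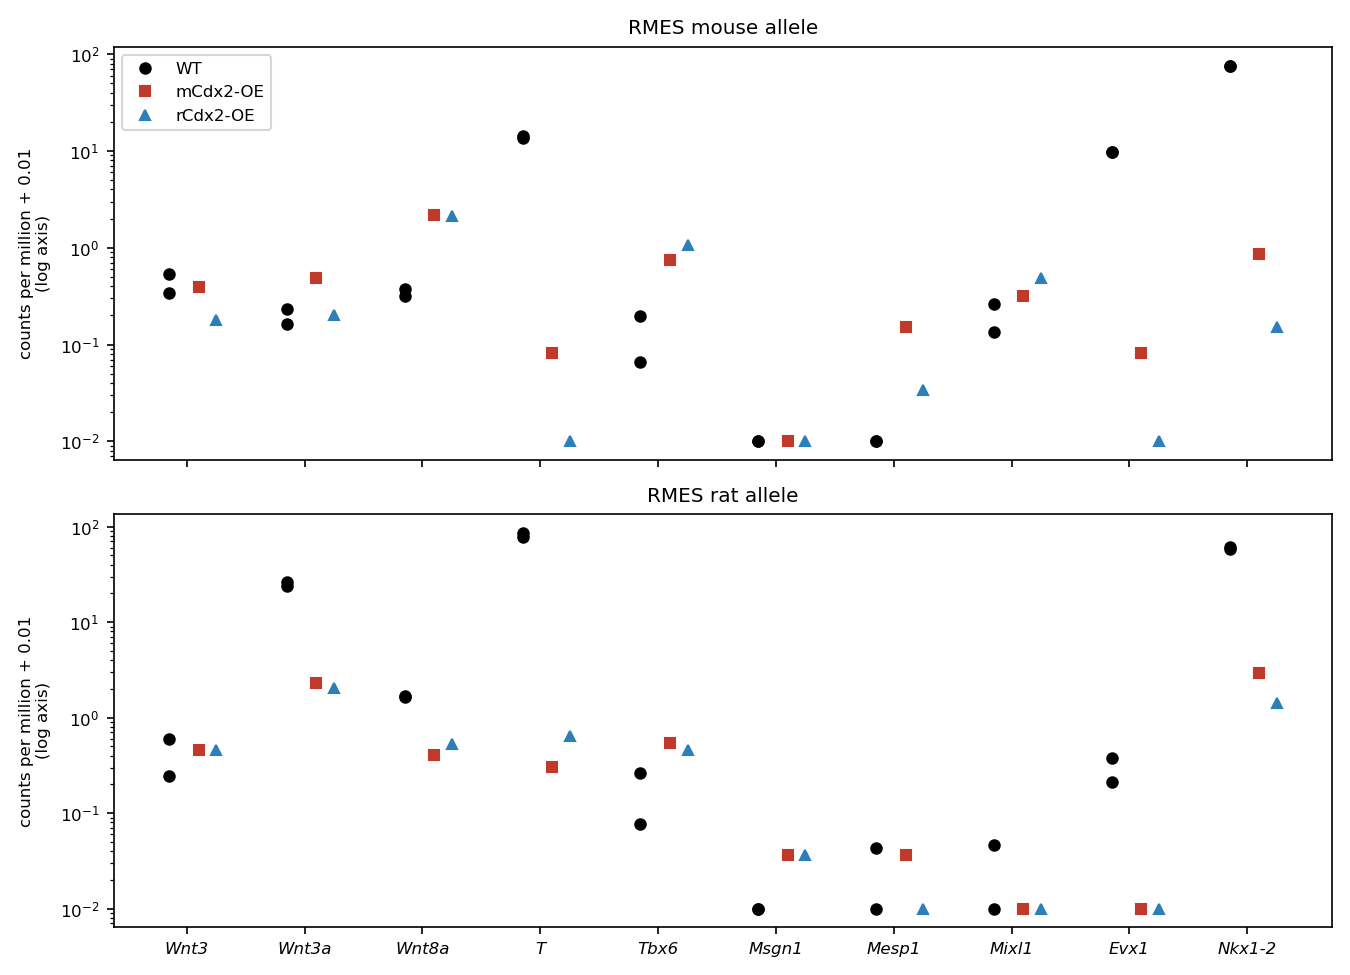
Level of the 10 genes in RMES cells, in CPM with 0.01 added (log axis), on the mouse allele (top) and the rat allele (bottom). Each symbol is 1 library, black circles for WT, red squares for mCdx2-OE and blue triangles for rCdx2-OE. T and Nkx1-2 fall on both alleles, Wnt8a rises on the mouse and falls on the rat allele, and Wnt3a is high in WT on the rat allele alone.

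T had 440 and 516 counts on the mouse allele of WT RMES cells, 3 with mCdx2-OE and 0 with rCdx2-OE. That is a 391-fold fall, with an exact 95% interval of 133 to 1899 that covers counting error only (log2 fold change -8.48 ± 0.34, edgeR adjusted p = 2.13e-10). On the rat allele it had 2341 and 2356 counts in WT, 11 with mCdx2-OE and 24 with rCdx2-OE, a log2 fold change of -7.46 ± 0.15 (edgeR adjusted p = 5.57e-15), or -8.11 without rCdx2-OE. On the mouse allele it was -7.54 without rCdx2-OE, and without mCdx2-OE the induced library held 0 counts and gives no fold. In both genomes nearly all T transcripts were gone after induction.

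Nkx1-2 had 2432 and 2723 counts on the mouse allele in WT, 36 with mCdx2-OE and 6 with rCdx2-OE, and 1689 and 1764 counts on the rat allele in WT, 109 with mCdx2-OE and 54 with rCdx2-OE. Its log2 fold change was -7.22 ± 0.23 on the mouse and -4.81 ± 0.17 on the rat allele (edgeR adjusted p = 2.76e-11 and 1.18e-12). These were -9.02 and -5.41 without mCdx2-OE, and -6.45 and -4.37 without rCdx2-OE. Evx1 had 315 and 352 counts on the mouse allele in WT and then 3 and 0, a 273-fold fall with an exact 95% interval of 92.9 to 1326. Its fitted log2 fold change there was -7.96 ± 0.38, and -7.02 without rCdx2-OE. On the rat allele Evx1 had 10 and 6 counts in WT and 0 in both induced libraries, which is at least 3.57-fold lower, set against 3 counts per library.

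Wnt3a and Wnt8a differed between the genomes. Wnt3a had 5 and 8 counts on the mouse allele in WT, 20 with mCdx2-OE and 8 with rCdx2-OE, and failed the filter there. On the rat allele it had 655 and 796 counts in WT, 87 with mCdx2-OE and 77 with rCdx2-OE, a log2 fold change of -3.54 ± 0.14 (edgeR adjusted p = 4.06e-12). Wnt8a had 10 and 13 counts on the mouse allele in WT and 92 and 88 after induction, a rise of 2.66 ± 0.31 on the log2 scale (edgeR adjusted p = 5e-06), but 45 and 50 counts on the rat allele in WT and 15 and 20 after induction, a fall of -1.84 ± 0.33 (edgeR adjusted p = 0.000102). Wnt3 had 7 to 17 counts in all 8 columns and did not pass on either allele.

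Tbx6 rose in RMES cells from very low levels. It had 6 and 2 counts on the mouse allele in WT, 31 with mCdx2-OE and 44 with rCdx2-OE, with a log2 fold change of 2.90 ± 0.53 (edgeR adjusted p = 0.000257), or 3.92 without WT replicate 1 and 2.24 without WT replicate 2. On the rat allele it had 7 and 2 counts in WT, 20 with mCdx2-OE and 17 with rCdx2-OE, with a log2 fold change of 1.61 ± 0.58 (edgeR adjusted p = 0.018), a call that was lost in DESeq2 (adjusted p = 0.143), without WT replicate 2 (edgeR adjusted p = 0.238), without mCdx2-OE (0.0777) and with no filter (0.0586). Mixl1 had 4 to 20 counts on the mouse and at most 1 on the rat allele, Mesp1 at most 6 and Msgn1 at most 1 on either.

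The difference of induction between the alleles was tested in 1 model of 8 columns with the library as a block. 3 of the 8 genes tested passed, where 62.1% of all genes did. Wnt3a, Evx1 and Mixl1 entered this test through the counts of 1 allele, and the value of Wnt3a, with 5 to 20 counts on the mouse allele, is a description. The rat minus mouse difference on the log2 scale was 2.45 ± 0.26 for Nkx1-2 and -4.48 ± 0.50 for Wnt8a (edgeR adjusted p = 2.33e-08 and 4.03e-08), and -4.32 ± 0.54 for Wnt3a. That of Nkx1-2 was 3.63 without mCdx2-OE and 2.10 without rCdx2-OE. T did not pass, at 1.03 ± 0.82 (edgeR adjusted p = 0.289), and its difference was 4.87 without mCdx2-OE and -0.55 without rCdx2-OE.

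**Figure D3:**
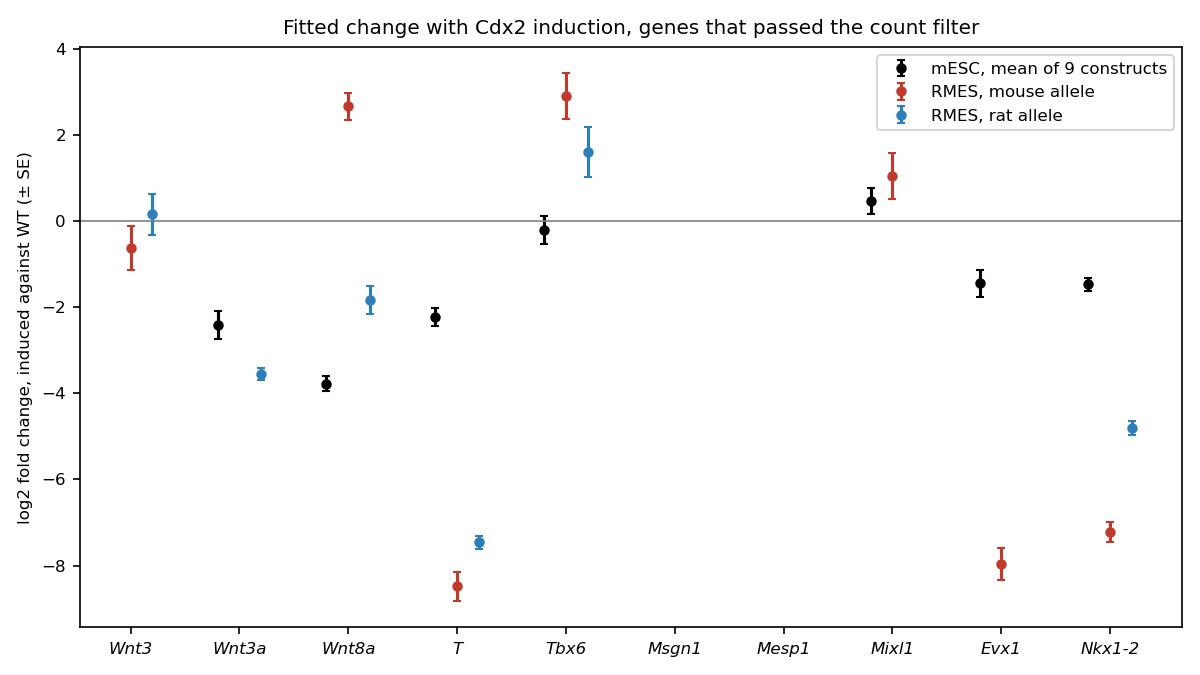
Fitted log2 fold change of induced against WT cells (vertical axis, bars are the SE) for the genes that passed the count filter, in mESCs (black), on the mouse allele (red) and on the rat allele (blue) of RMES cells. T and Nkx1-2 are lower in all 3, Evx1 is lower in both where it was tested, and Wnt8a has opposite signs on the alleles.

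Other genes of the streak and presomitic pathways were taken from a list of 47, of which 40 passed the filter in mESCs. In the mean of the 9 constructs 12 were lower and 8 higher, beside 13.5% and 13.2% of all genes, with a median log2 fold change of -0.34. Bmp4, a ligand that induces the streak, was at 17.0 and 18.1 CPM in WT and 0.618 to 4.15 CPM after induction, a log2 fold change of -3.5 ± 0.13. Lef1, a nuclear mediator of Wnt signalling, fell by 3.01 ± 0.12, Tcf15, a factor of paraxial mesoderm, by 2.62 ± 0.13, and Porcn, the acyltransferase that Wnt ligands need for secretion, by 2.47 ± 0.07, all on the log2 scale. For Porcn this mean was carried by the mutants: its log2 fold change was -0.77 ± 0.11 with mCdx2-OE and -0.94 ± 0.11 with rCdx2-OE, both under 2-fold, and in RMES cells Porcn rose, by 1.75 ± 0.12 on the mouse and 4.06 ± 0.30 on the rat allele. In the other direction, Dkk1, a secreted Wnt inhibitor, rose by 3.76 ± 0.19. Wls, which carries Wnt ligands to the cell surface, rose by 1.82 ± 0.11. Gsc, a factor of the anterior streak, rose by 1.62 ± 0.17, and Wnt5a by 1.6 ± 0.24. For Wnt5a the groups overlapped, with 0.662 and 0.723 CPM in WT and 0.435 to 8.36 CPM after induction. By role, the ligands and secreted genes had 3 lower and 3 higher of 10, the retinoid genes 1 lower and 0 higher of 2, the Wnt reception and nuclear genes had 4 lower and 1 higher of 14, the streak factors 2 lower and 4 higher of 10, and the presomitic clock and Notch genes 2 lower and 0 higher of 4.

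Chromatin was measured around the same genes, in peaks that overlap a window of 30 kb to either side of the gene start, counted along the direction of transcription. 7 of the 10 genes had a Cdx2 ChIP peak in mESCs, as had 72.4% of protein-coding genes, and 6 had one on the mouse genome of RMES cells, as had 63.7%. The 16 mESC peaks held 41 to 455 reads over both libraries, and all 16 differed by less than 2-fold between mCdx2-OE and rCdx2-OE after scaling, as 99.1% of all peaks did. 11 of the 16 overlapped a peak of RMES cells. Msgn1, Mesp1 and Wnt3a had none in either cell type. With 1 library per condition there is no test.

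**Figure D4:**
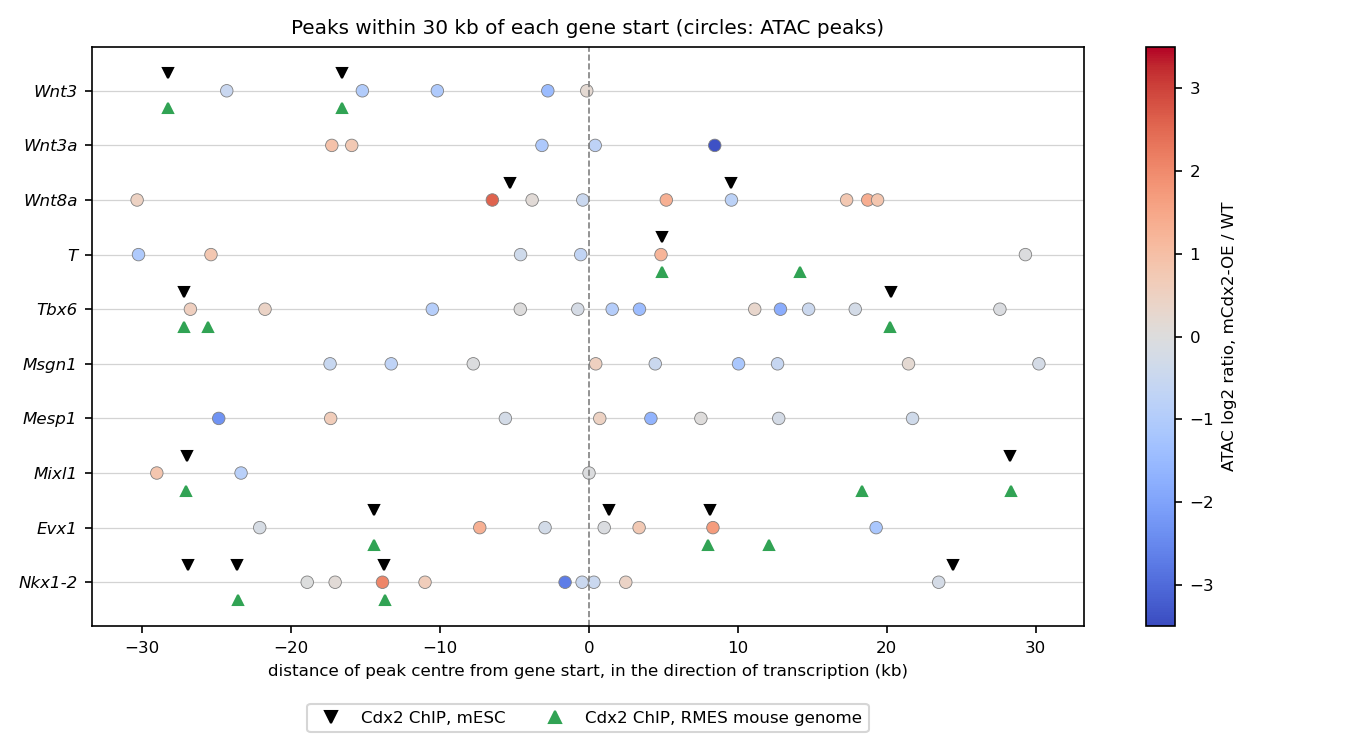
Peaks within 30 kb of each gene start, by distance of the peak centre from the start in kb (horizontal axis, upstream negative). Circles are ATAC peaks with at least 40 scaled reads, coloured by the log2 ratio of mCdx2-OE to WT, and triangles are Cdx2 ChIP peaks in mESCs (black) and on the mouse genome of RMES cells (green). T, Evx1 and Nkx1-2 each have a ChIP peak over an ATAC peak that opened, and the ATAC peak with the largest fall lies 8.45 kb into Wnt3a.

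Of 73 ATAC peaks with at least 40 scaled reads near the 10 genes, 7 were over 2-fold more open and 13 over 2-fold less open in mCdx2-OE mESCs, beside 13.7% and 20.5% of all such peaks. 3 of the 7 that opened overlapped a Cdx2 ChIP peak, and 0 of the 13 that closed did. Of all opened peaks 58.3% overlapped one, and of all closed peaks 2.97%. The 3 lay at T, Evx1 and Nkx1-2, whose RNA was lower after induction.

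In T (chr17:8434423-8442496, plus strand, GRCm38), the only Cdx2 peak in mESCs lay in an intron, 4.94 kb downstream of the start, with 75 reads from mCdx2-OE and 46 from rCdx2-OE. The ATAC peak over it went from 10 reads in WT to 33 in mCdx2-OE, a log2 ratio of 1.22 after scaling. It held 40.5 scaled reads, just over the minimum of 40. At Evx1 (chr6:52313498-52318378, plus strand) the peak with the most reads, 248 and 207, lay 8.12 kb downstream of the start, beyond the 3′ end of the gene, and its ATAC peak went from 14 to 65 reads, a log2 ratio of 1.72.

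At Nkx1-2 (chr7:132594878-132599637, minus strand) the strongest Cdx2 peak, with 76 and 70 reads, lay 13.7 kb upstream, in introns annotated to Lhpp and Fgfr2. ATAC reads there went from 22 to 128, a log2 ratio of 2.06, while the ATAC peak 1.6 kb upstream of the start closed, with a log2 ratio of -2.68. At Mixl1 (chr1:180693043-180697034, minus strand) a peak 27.0 kb upstream held 91 and 78 reads, and its ATAC peak went from 6 to 37 reads, a log2 ratio of 2.04, at 39.2 scaled reads, just under the minimum of 40. At Wnt3a (chr11:59248033-59290752, minus strand), which had no Cdx2 peak, the ATAC peak 8.45 kb into the gene closed with a log2 ratio of -3.39, and at Wnt8a an ATAC peak 6.48 kb upstream opened with a log2 ratio of 2.59, without a Cdx2 peak on it.

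At the other genes with Cdx2 peaks, the strongest lay further out or held fewer reads. That of Tbx6 lay 27.2 kb upstream with 125 and 92 reads, that of Wnt3 16.5 kb upstream with 48 and 25, and that of Wnt8a 9.51 kb downstream with 26 and 32. Among ATAC peaks with at least 40 scaled reads, those that moved most at Tbx6, Wnt3, Mesp1 and Msgn1 closed, with log2 ratios of -1.78, -1.46, -2.31 and -1.15, and none of these 4 overlapped a Cdx2 peak. At Mixl1 no such peak moved over 2-fold.

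The 300 bases at the centre of the strongest Cdx2 peaks of T, Evx1, Nkx1-2 and Mixl1 are shown to let the bound sequence be read beside its values. They were read from the RefSeq GRCm38.p6 assembly on the strand of the gene, and capitals mark the Cdx core TTTATG or its reverse complement.
T, chr17:8439216-8439515: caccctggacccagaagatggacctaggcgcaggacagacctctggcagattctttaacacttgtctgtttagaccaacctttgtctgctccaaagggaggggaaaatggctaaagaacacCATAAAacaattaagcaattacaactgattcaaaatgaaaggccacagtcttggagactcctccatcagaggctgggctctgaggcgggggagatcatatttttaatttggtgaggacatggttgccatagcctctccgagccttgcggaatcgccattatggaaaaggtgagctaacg
Evx1, chr6:52321469-52321768: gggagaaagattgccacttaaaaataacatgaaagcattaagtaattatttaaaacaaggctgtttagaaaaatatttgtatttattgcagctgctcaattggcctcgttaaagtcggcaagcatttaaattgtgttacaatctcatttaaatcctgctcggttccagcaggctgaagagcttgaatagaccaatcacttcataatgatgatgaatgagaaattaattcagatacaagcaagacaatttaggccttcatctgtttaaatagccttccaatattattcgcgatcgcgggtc
Nkx1-2, chr7:132613225-132613524: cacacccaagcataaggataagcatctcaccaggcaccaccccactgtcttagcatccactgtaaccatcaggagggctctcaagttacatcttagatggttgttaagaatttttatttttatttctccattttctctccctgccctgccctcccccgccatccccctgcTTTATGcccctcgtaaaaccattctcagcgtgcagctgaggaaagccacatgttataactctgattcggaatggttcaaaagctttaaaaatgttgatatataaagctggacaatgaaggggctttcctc
Mixl1, chr1:180723900-180724199: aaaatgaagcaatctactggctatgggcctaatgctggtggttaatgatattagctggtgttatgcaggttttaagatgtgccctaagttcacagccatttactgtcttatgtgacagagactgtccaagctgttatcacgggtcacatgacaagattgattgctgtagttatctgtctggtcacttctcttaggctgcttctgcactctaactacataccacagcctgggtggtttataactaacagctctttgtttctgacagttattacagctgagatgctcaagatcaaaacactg

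The windows of T and Nkx1-2 held 1 Cdx core each, and those of Evx1 and Mixl1 held 0. Of the 300-base windows at all 91665 Cdx2 peaks in mESCs, 50.4% held it on either strand. The LEF/TCF core CTTTGA and the T-box core TCACAC were in none of the 4 windows, and in 22.8% and 12.7% of all windows. The windows at the strongest Cdx2 peaks of Tbx6 and Wnt3 are not shown. That of Wnt3 held 1 Cdx core and 1 T-box core, and that of Tbx6 held 0 of each core. The peak window and promoter of Wnt8a are not reported here. Of the 8 RefSeq promoters of these genes that were read (250 bases before to 50 after the start), 2 held the Cdx core, those of T and Msgn1, beside 11.9% of 32851 promoters. The LEF/TCF core was in 3 (16%) and the T-box core in 2 (14.5%). A match describes letters and not binding.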

How the data were processed

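The files hold counts that the authors deposited without normalisation. RNA-seq read pairs were aligned by the authors with STAR 2.7.0d to mm10 (for RMES cells also to rn6, with reads assigned to a genome by edit distance) and counted per gene with featureCounts. ATAC-seq and ChIP-seq reads were aligned with Bowtie2 2.3.4.3, and peaks were called with MACS2 on merged reads, so that a peak cannot be shown for 1 library alone. Treatment of reads matching both genomes equally, and a shift of ATAC-seq reads, are not given in the sources used here.

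Counts were fitted with edgeR 4.0.16 and limma 3.58.1 in R 4.3.3 (TMM, filterByExpr, quasi-likelihood test, Benjamini-Hochberg adjustment over all genes), with all 20 mESC libraries in 1 fit, and DESeq2 1.42.0 as an alternative. Against WT, and for the alleles on their own, a call needed an adjusted p under 0.05 and a fold over 2. Other comparisons needed the adjusted p alone. CPM used TMM-scaled library sizes. Peak reads were scaled to equal totals, with 1 added before log2 ratios. The scripts were tested on simulated data, where the share of false calls in the mean of the constructs mostly ran above the nominal share, so these adjusted p-values may be somewhat too small. Exact intervals and floors cover counting error only.

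The 10 genes, the other gene lists and the tests were chosen with earlier results of these data known. All 10 genes are described whatever their values. Of the other pathway genes, the 4 largest rises and falls with a mean of at least 50 counts are named, and near each gene the ChIP peak with the most reads and the ATAC peak with the largest ratio. 3 comparisons were added after seeing the data. Cdx2 ChIP-seq peaks on the rat genome were not used here.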

Additional observations from a re-analysis of the deposited data

Results flagged for a closer look

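The response to induction differed between the alleles of RMES cells for Nkx1-2 and Wnt8a, in a test of the difference itself. Of all genes, 62.1% passed this test. The rat minus mouse difference in log2 fold change was 2.45 for Nkx1-2 and -4.48 for Wnt8a (edgeR adjusted p = 2.33e-08 and 4.03e-08). Wnt3a, at -4.32, entered this test through its counts on the rat allele and held 5 to 20 counts in the 4 libraries on the mouse allele, where it failed the filter, so its value is a description. In mESCs, the intact proteins and the mutants differed for 3 of the 7 genes, where 64.0% of all genes did. This comparison was chosen after seeing the data, and it cannot tell sets of lines apart from types of protein. Mixl1 lost its call without either replicate. The log2 difference of intact against mutant was 4.13 for Wnt8a, -1.31 for Nkx1-2 and -1.37 for Mixl1 (edgeR adjusted p = 1.69e-11, 9.39e-06 and 0.00199).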

How the results depend on the processing

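Of 258 alternatives for genes that were called, 239 kept their direction and call, 19 kept the direction but lost the call, and 0 reversed. Of 198 for genes that were not called, 182 kept their direction and side of the threshold, 7 passed it and 9 reversed. Without replicate 1 or 2, Tbx6 ran from -0.27 to 0.11 with mCdx2-OE, -0.67 to 1.055 with rCdx2-OE, -0.70 to 0.68 in the mean of the constructs, -0.065 to 0.60 for intact against mutant and -0.013 to 0.80 for change 3, and Wnt3a from -0.17 to 0.72 for intact against mutant. Wnt3a was at -0.086 for change 3 without replicate 2, and gave no value without replicate 1. Without 1 library, Wnt3 ran from -0.39 to 0.92 on the rat allele and T from -0.55 to 4.87 between the alleles. The cause was not tested.

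With genes under a mean of 1 CPM left out, which removes most of these genes, the called genes numbered 1 with mCdx2-OE, 1 with rCdx2-OE, 2 in the mean of the constructs, 0 with every construct, 2 among the constructs, 1 for the changes and 12 of the other pathway genes (main 4, 4, 5, 2, 4, 2 and 20). Without a replicate, the mean of the constructs called 2 to 2 genes and 11 to 13 other pathway genes, in a fit of 1 WT library against the 9 constructs as replicates, which takes WT to vary as they do. Each construct against WT, with 1 library of both left out and the spread pooled over the other conditions, left 0 to 0 genes called with every construct. The changes, fitted on the libraries of the other replicate alone, called 0 to 1. A fold threshold of 4 gave 3 in the mean of the constructs, 0 with every construct, 3 on the rat allele (main 5) and 11 other pathway genes, and no fold threshold gave 35 of these. DESeq2 gave 1 with every construct, and the mutants without rCdx2-OE gave 5 for the changes.

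Of ATAC peaks more open, main 7, there were 25 within 100 kb, 18 without scaling and 2 over 4-fold. ChIP peaks near the genes, 16 in mESCs and 15 in RMES cells, numbered 5 and 2 within 10 kb, 61 and 54 within 100 kb, and 7 and 2 with at least 100 reads.

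Nothing in the labels pairs the samples, and the replicate number coincides with the counting table. The 45 correlations of replicate differences between conditions ran from -0.16 to 0.57 (median -0.02), 22 of them over 0.1, so that some conditions deviated together and not all. With the replicate block, 4 genes were called with mCdx2-OE, 4 with rCdx2-OE, 5 in the mean of the constructs, 2 with every construct, 4 among the constructs, 0 between mCdx2-OE and rCdx2-OE, 3 for intact against mutant, 1 for R123 against mCdx2-OE, 2 for the changes, and 19 of the other pathway genes. Depth limits Wnt3, Mesp1 and Msgn1, which had at most 11, 4 and 2 counts in induced mESC libraries. Wnt3a and T, which were tested, had at most 10 and 17 counts there.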
